A study of Mus musculus with 32 samples.

Results

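Tbx2, Tbx3, Tbx4 and Tbx6 are members of the T-box family, and their expression was followed here over 8 groups of mouse embryonic stem cells (ESCs) that differed in exogenous β-catenin and in day of differentiation. They are 4 of the 31053 genes in the count tables and were listed by name, matched by symbol to Ensembl identifiers. The group was selected on earlier results of these data: it was chosen by the measured levels of Tbx2 and Tbx4, said to change in opposite ways with day and induction. The values of Tbx2 and Tbx4 over day and induction are therefore given as a description with no test. These genes were tested only between the sorted fractions and in the interaction of sorted fraction and duration of induction. Both use groups whose levels were part of the stated pattern. Tbx3 was tested in every comparison. Tbx6 did not pass the filter on low counts, which asked for at least 1 CPM (counts scaled to a fixed library total, here of all counted reads) in at least 4 libraries.

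All cells were from a single ESC line, C1, which lacks endogenous β-catenin (β-catenin-/-). It carries EF1a-rtTA and TRE3G-DDmCherryβ-catenin S33Y, a fusion protein whose transcription needs doxycycline (dox) and whose destabilising domain is blocked by trimethoprim (TMP). Day 0 cells were pre-treated for 48 h. The C1 group received TMP at 10 µM without dox, and the C1M and C1H groups received TMP at 10 µM with dox at 100 ng/mL and were sorted as the middle and high mCherry fractions. At day 4 of monolayer differentiation, C1T had been kept in TMP without dox, C1MV and C1HV in DMSO vehicle after withdrawal of both drugs, and C1MDT and C1HDT in dox and TMP. Each group held 4 libraries labelled as biological replicates, 12 libraries at day 0 and 20 at day 4. The GEO labels describe culture in serum and LIF, whereas the study's methods describe a pre-culture in 2i/L for this experiment.

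The assay was 3′ mRNA sequencing (QuantSeq), which counts reads near the 3′ end of transcripts. Totals ran from 1366951 to 3648787 counts per library (median 2402467.5), so that 3 counts in a library corresponded to 0.822 to 2.19 CPM. Ctnnb1, which encodes β-catenin, had a mean of 7.63 CPM in C1, 12.5 CPM in C1M and 42.6 CPM in C1H. At day 4 its mean was 9.39 CPM in C1T, 9.22 and 6.31 CPM in C1MV and C1HV, and 29 and 30.3 CPM in C1MDT and C1HDT. The reads do not separate the transgene from what is left of the endogenous locus. The 8 genes of the core pluripotency list, among them Pou5f1 and Sox2, were detected in every group, with a summed level between 1694 and 2375 CPM in all libraries.

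T-box proteins are transcription factors that bind DNA through a conserved domain, the T-box, and several act as repressors. Tbx3 belongs to the network that maintains naive pluripotency in mouse ESCs and has also been tied to extraembryonic endoderm. Its close relative Tbx2 represses cell cycle inhibitors and acts in heart and limb development, Tbx4 is known from hindlimb, allantois and lung, and Tbx6 specifies paraxial mesoderm.

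On the GRCm38 build, Tbx2 (ENSMUSG00000000093) lies at chr11:85832551-85841948 and Tbx4 (ENSMUSG00000000094) at chr11:85886422-85916097, both on the forward strand and 44474 bp apart. Between them lies Gm11444, which had 0 counts in all libraries. Tbx3 (ENSMUSG00000018604) is at chr5:119670669-119684724 and Tbx6 (ENSMUSG00000030699) at chr7:126781483-126785560, also on the forward strand. The coding sequences of the 4 genes are given over the 75 bases of a single exon where they are most alike, inside the DNA-binding T-box, to show how close the family members are where they share a function. Each was read from the GENCODE M21 transcript with the longest coding sequence and is written 5′ to 3′ on the forward strand. Capitals mark the bases that are the same in all 4 genes.
Tbx2: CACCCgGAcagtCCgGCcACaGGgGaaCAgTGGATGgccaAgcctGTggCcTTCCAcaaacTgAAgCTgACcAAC
Tbx3: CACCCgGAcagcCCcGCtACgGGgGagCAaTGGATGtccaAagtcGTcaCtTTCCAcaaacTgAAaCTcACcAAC
Tbx4: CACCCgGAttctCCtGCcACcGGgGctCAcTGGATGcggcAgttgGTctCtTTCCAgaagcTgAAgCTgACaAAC
Tbx6: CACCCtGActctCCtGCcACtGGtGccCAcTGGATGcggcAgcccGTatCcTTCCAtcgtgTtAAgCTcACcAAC
These stretches are in exon 2 of Tbx2 (chr11:85834789-85834863), exon 2 of Tbx3 (chr5:119674195-119674269), exon 4 of Tbx4 (chr11:85899799-85899873) and exon 3 of Tbx6 (chr7:126783014-126783088). Of the 75 bases, 43 (57.3%) were shared by all 4. The closest pair was Tbx2 and Tbx3 with 78.7% of bases identical, and the most distant was Tbx3 and Tbx6 with 62.7%. Over the whole of these transcripts the longest exact run shared by any pair was 20 bases (Tbx4 and Tbx6), so no stretch was found in which a read of the length used would be identical in a pair of these genes.

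Tbx3 was present in every library and fell from day 0 to day 4 in each arm. In C1, its level was 797, 826, 847 and 825 CPM in replicates 1 to 4. In C1M the libraries had 626, 618, 623 and 636 CPM, and in C1H they had 711, 732, 672 and 677 CPM. The 12 day 0 libraries thus spanned 618 to 847 CPM, and the 3 groups did not overlap each other.

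At day 4, Tbx3 was at 59.6, 59.7, 33.8 and 39.5 CPM in C1T. The vehicle groups were higher, with 106, 90.4, 103 and 90.7 CPM in C1MV and 85.3, 105, 97.5 and 81.2 CPM in C1HV. The groups kept in dox and TMP had 46.6, 53.5, 51.8 and 54.6 CPM (C1MDT) and 58.4, 60.6, 43.0 and 37.3 CPM (C1HDT). Every C1MV and C1HV library lay above every C1T, C1MDT and C1HDT library, and the latter 3 groups overlapped. In bulk RNA, fewer cells expressing a gene and less RNA per cell cannot be told apart.

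**Figure D1:**
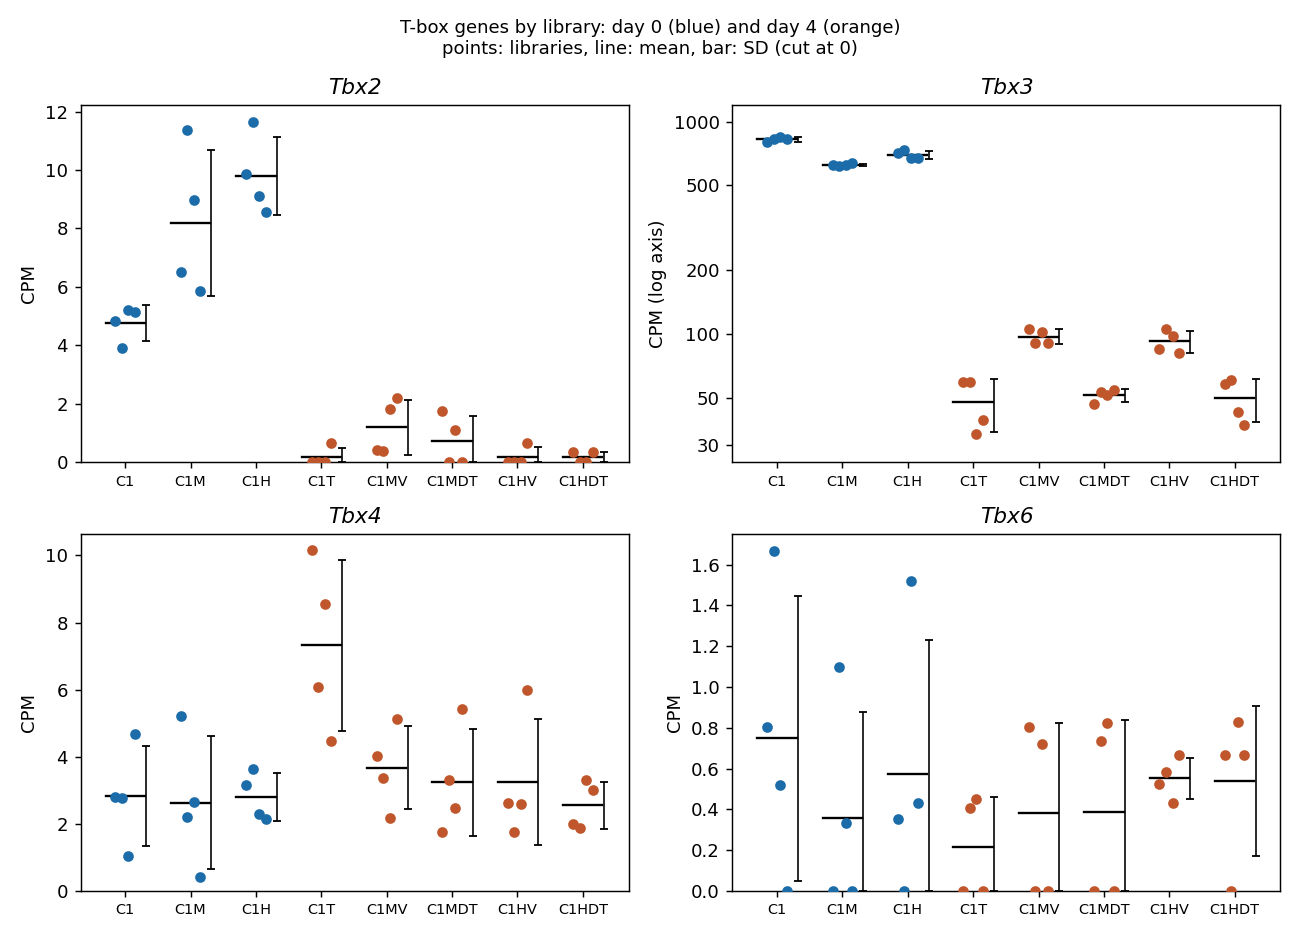
Level of Tbx2, Tbx3, Tbx4 and Tbx6 in CPM (vertical axis, logarithmic for Tbx3) in each library of the 8 groups, with day 0 in blue and day 4 in orange, the mean as a line and the SD of 4 libraries as a bar beside it. Tbx3 and Tbx2 were lower in every day 4 library than in any day 0 library, Tbx4 was highest in C1T, and Tbx6 stayed at 1.67 CPM or below.

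The estimated fall of Tbx3 with day was largest without induction. In edgeR's quasi-likelihood test with Benjamini-Hochberg adjustment over 15280 genes, C1T vs C1 gave a log2 fold change of −4.05 (SE 0.10, FDR = 2.14e-59), a level 16.6-fold lower. In this comparison 49.2% of all genes tested were called, and 24.9% were called lower, at an FDR under 0.05. The log2 fold change was −2.65 in C1MV vs C1M (FDR = 5.41e-47), against 45.8% of all genes called (23.8% lower), and −2.89 in C1HV vs C1H (FDR = 3.54e-49), against 47% called (25.1% lower). With dox and TMP kept on, it was −3.54 in C1MDT vs C1M (FDR = 8.97e-56, 52.4% of genes called, 27.9% lower) and −3.74 in C1HDT vs C1H (FDR = 1.68e-57, 55.7% called, 29.4% lower).

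The difference between these falls was itself tested. Compared with C1T vs C1, the fall was smaller by 1.41 on the log2 scale for C1MV (SE 0.14, FDR = 5.55e-15, edgeR), by 1.17 for C1HV (SE 0.14, FDR = 3.82e-11) and by 0.51 for C1MDT (SE 0.14, FDR = 0.00391). The corresponding shares of all genes called were 22.5%, 21.9% and 24.4%. For C1HDT the difference was 0.31 (95% interval 0.03 to 0.59) and did not pass the adjusted threshold (FDR = 0.103), with 25.2% of genes called. That call depended on single libraries: it passed without C1T replicate 1 (0.42, FDR = 0.0326), without C1T replicate 2 (0.47, FDR = 0.0162), without C1HDT replicate 3 (0.40, FDR = 0.046) or without C1HDT replicate 4 (0.46, FDR = 0.0109).

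At day 0, Tbx3 was lower in both induced fractions than in C1. The log2 fold change was −0.46 in C1M vs C1 (SE 0.08, FDR = 1.33e-06) and −0.32 in C1H vs C1 (SE 0.08, FDR = 0.000906). These changes were small beside those with day, and 26.3% and 25.9% of all genes were called in the same comparisons (12% and 12.1% lower).

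At day 4 the order was different, since Tbx3 was higher in the withdrawn groups than in C1T. It rose by 0.95 in C1MV vs C1T (SE 0.11, FDR = 1.02e-11), where 30.2% of genes were called (15.4% higher), and by 0.85 in C1HV vs C1T (SE 0.12, FDR = 1.75e-09), where 28% were called (13.7% higher). With sustained induction no difference from C1T passed the test, at 0.05 for C1MDT (95% interval −0.18 to 0.29, FDR = 0.784) and −0.0049 for C1HDT (−0.24 to 0.23, FDR = 0.985). The shares of genes called in these were 33.4% and 33.5%, of which 16.9% and 17.4% of all genes were higher and 16.5% and 16.1% lower. The groups share C1T as their control. C1T was kept in TMP, whereas C1MV and C1HV were in DMSO. Earlier induction and the absence of TMP therefore cannot be told apart in C1MV vs C1T and C1HV vs C1T. The same holds for the interactions of C1MV and C1HV.

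The duration of induction was compared directly within each sorted fraction. Tbx3 was lower when dox and TMP were kept on, by a log2 fold change of −0.90 in C1MDT vs C1MV (SE 0.11, FDR = 9.78e-11) and of −0.86 in C1HDT vs C1HV (SE 0.11, FDR = 2.1e-09). Of all genes, 12.6% and 15.9% were called in these comparisons, with 5.98% and 6.89% lower and 6.64% and 9.06% higher. No library of a sustained group reached the lowest library of the matching withdrawn group. The groups compared differ in both drugs, and an effect of dox or TMP apart from the fusion protein was not tested.

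**Figure D2:**
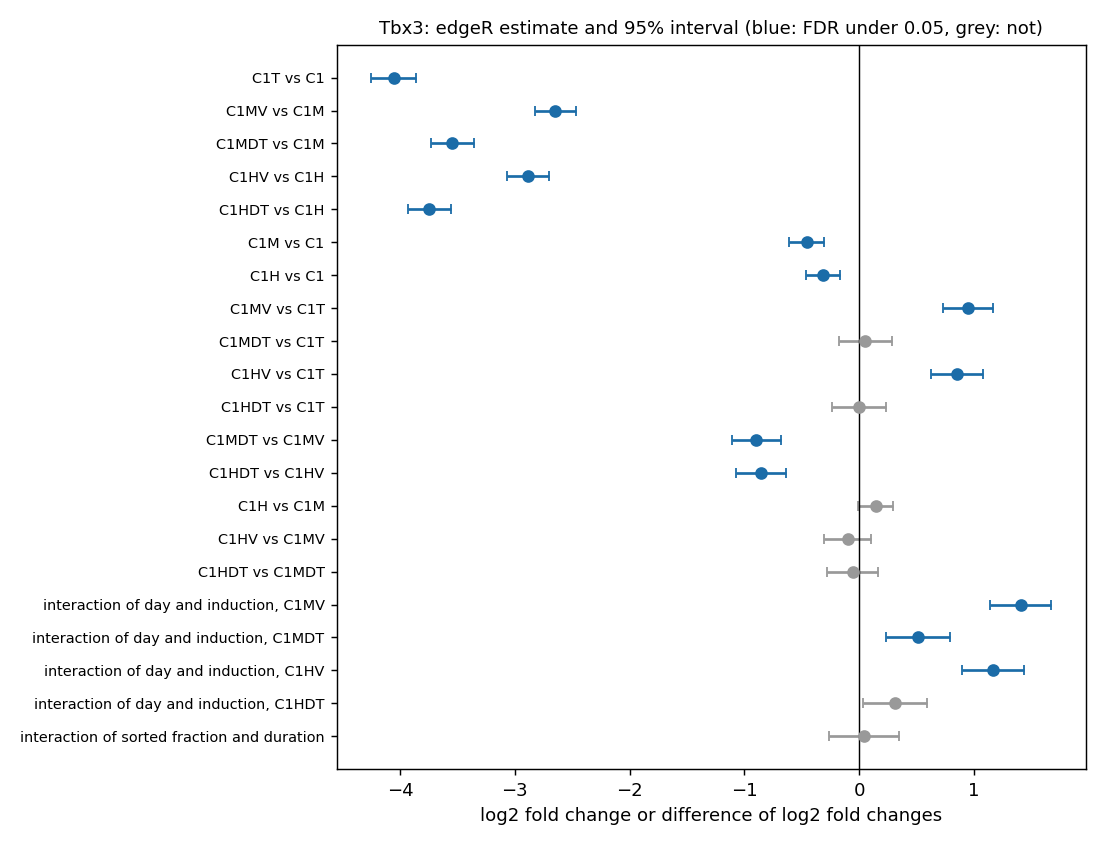
Tbx3 log2 fold change, or difference of log2 fold changes for the interactions, on the horizontal axis for each comparison, with its 95% interval from the edgeR fit over 32 libraries (blue for an FDR under 0.05). The 5 day comparisons lie between −4.05 and −2.65, both withdrawn groups lie above C1T, and the 3 comparisons of sorted fractions include 0.

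The order of the Tbx3 group means was C1 (824 ± 20.6 CPM, SD, n = 4), C1H (698 ± 28.4), C1M (626 ± 7.87), C1MV (97.3 ± 7.90), C1HV (92.3 ± 11.1), C1MDT (51.6 ± 3.53), C1HDT (49.8 ± 11.5) and C1T (48.1 ± 13.5). C1H and C1M, C1MV and C1HV, and the lowest 3 groups did not differ at the adjusted threshold where they were compared, although every C1H library was above every C1M library. Within C1T, replicates 1 and 2 were above replicates 3 and 4 by more than any gap within C1MDT, and the same replicate numbers were the higher ones in C1HDT.

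Tbx2, the relative closest to Tbx3 in the sequences above, was detected at day 0 and was at 5 counts or fewer in every day 4 library. Its raw counts in replicates 1 to 4 were 12, 7, 10 and 11 in C1, which is 4.81, 3.90, 5.21 and 5.15 CPM. In C1M they were 15, 31, 27 and 14 (6.52, 11.4, 8.98 and 5.86 CPM), and in C1H they were 28, 32, 24 and 20 (9.86, 11.7, 9.12 and 8.58 CPM). Every library of both induced fractions was above every C1 library, while C1M and C1H overlapped. The share of all genes whose libraries separate in this way was not counted. Of all genes tested, 14.3% were called higher in C1M vs C1 and 13.8% in C1H vs C1.

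At day 4 the counts of Tbx2 were 0, 0, 0 and 1 in C1T, 0, 0, 0 and 1 in C1HV, and 1, 0, 0 and 1 in C1HDT. They were 1, 1, 5 and 3 in C1MV and 3, 0, 4 and 0 in C1MDT. Of the 20 day 4 libraries, 10 held no read of Tbx2 and 18 held 3 or fewer. No day 4 library reached the lowest day 0 library (3.90 CPM), the highest being at 2.19 CPM in C1MV.

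Summed over the 12 day 0 libraries Tbx2 had 231 counts, or 7.88 CPM (exact 95% Poisson interval 6.90 to 8.96), and over the 20 day 4 libraries 21 counts, or 0.449 CPM (0.278 to 0.687). These intervals cover counting error only. Group by group, the ratio of summed levels was 40.3 for C1 over C1T (95% counting interval 6.84 to 1633, 40 against 1 count). It was 7.76 for C1M over C1MV (4.02 to 16.7) and 13.2 for C1M over C1MDT (6.12 to 33.7). It was 73.3 for C1H over C1HV (12.9 to 2924) and 52 for C1H over C1HDT (14.0 to 435). The wide intervals come from the 1 to 10 counts in the day 4 groups. In C1T and in C1HV the only read was in replicate 4, and without that library the fitted log2 fold change went from −4.81 to −6.56 in C1T vs C1 and from −5.69 to −7.50 in C1HV vs C1H. The ratio with induction at day 0 was 1.74 for C1M over C1 (1.18 to 2.6) and 2.06 for C1H over C1 (1.42 to 3.04). No test is given for any of these, since this pattern chose the gene.

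Among the day 4 groups, Tbx2 had 10 summed counts in C1MV and 7 in C1MDT, both from the middle fraction, and 1, 2 and 1 in C1HV, C1HDT and C1T. The libraries of these groups overlapped, except that every C1MV library (0.375 CPM or more) lay above every C1HDT library (0.334 CPM or less). The lowest C1MV and the highest C1HDT library each held 1 read. The stated pattern names day and induction and not the sorted fraction. The fractions are induced groups whose levels were part of that pattern, so these tests may not be independent of the choice. Between the sorted fractions no difference passed the test. C1H vs C1M gave 0.23 on the log2 scale (95% interval −0.38 to 0.85, FDR = 0.846, edgeR), in a comparison where 1.77% of all genes were called (0.713% higher and 1.06% lower). In C1HV vs C1MV, C1MV stood higher with a ratio of summed levels of 8.00 (95% counting interval 1.14 to 347) and an FDR of 0.532 (edgeR). The fitted log2 fold change of −2.61 became −4.46 without C1HV replicate 4, which held the only read of that group, and the comparison was not called without any 1 library (FDR from 0.539 to 0.803, edgeR). The ratio of C1MDT over C1HDT was 3.34 (0.637 to 33, edgeR FDR = 0.958).

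Tbx4, the neighbour of Tbx2 on chromosome 11, had low counts at every stage and was highest in C1T. Its counts were 7, 5, 2 and 10 in C1 (2.81, 2.78, 1.04 and 4.68 CPM), 12, 6, 8 and 1 in C1M (5.22, 2.20, 2.66 and 0.419 CPM) and 9, 10, 6 and 5 in C1H (3.17, 3.64, 2.28 and 2.14 CPM). In C1T there were 22, 15, 19 and 7 counts (10.2, 6.09, 8.57 and 4.46 CPM). The 3 day 0 groups overlapped throughout, and 3 of the 4 C1T libraries lay above all 12 day 0 libraries.

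The other day 4 groups were nearer to day 0. Tbx4 was at 4.03, 3.38, 2.16 and 5.12 CPM in C1MV and at 1.75, 3.30, 2.47 and 5.43 CPM in C1MDT. In C1HV the libraries had 2.63, 1.75, 2.59 and 5.99 CPM, and in C1HDT they had 2.00, 1.88, 3.31 and 2.99 CPM. Only C1HDT lay below C1T in every library, and the other 3 groups overlapped C1T at its lowest library, replicate 4.

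By summed counts, Tbx4 was 2.6 times higher in C1T than in C1 (95% counting interval 1.60 to 4.36, 63 against 24 counts). Relative to C1T the ratio was 0.460 in C1MV (0.291 to 0.715), 0.448 in C1MDT (0.290 to 0.683), 0.413 in C1HV (0.245 to 0.675) and 0.342 in C1HDT (0.209 to 0.545). At day 0 the ratio was 0.900 for C1M over C1 (0.50 to 1.63) and 0.989 for C1H over C1 (0.559 to 1.77). From day 0 to day 4 in the induced arms it lay between 0.900 (C1HDT over C1H, 0.515 to 1.57) and 1.33 (C1MV over C1M, 0.772 to 2.31). These values are a description, with no test.

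Set side by side, the opposite course of Tbx2 and Tbx4 held in part of the groups. From C1 to C1T, Tbx2 went from 40 summed counts to 1 and Tbx4 from 24 to 63. With induction at day 0, Tbx2 was higher in each induced library while the interval of the Tbx4 ratio included 1. With induction at day 4, Tbx4 was lower than in C1T while Tbx2 was at 10 counts or fewer in all 5 groups. In the arms with dox pre-treatment, Tbx2 fell with day while the interval of the Tbx4 ratio included 1. Across the 32 libraries the Pearson correlation of log2 CPM was −0.35 (Spearman −0.20), and within groups it was −0.11. These libraries share the 2 days and the group structure, and the counts of both genes are low.

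**Figure D3:**
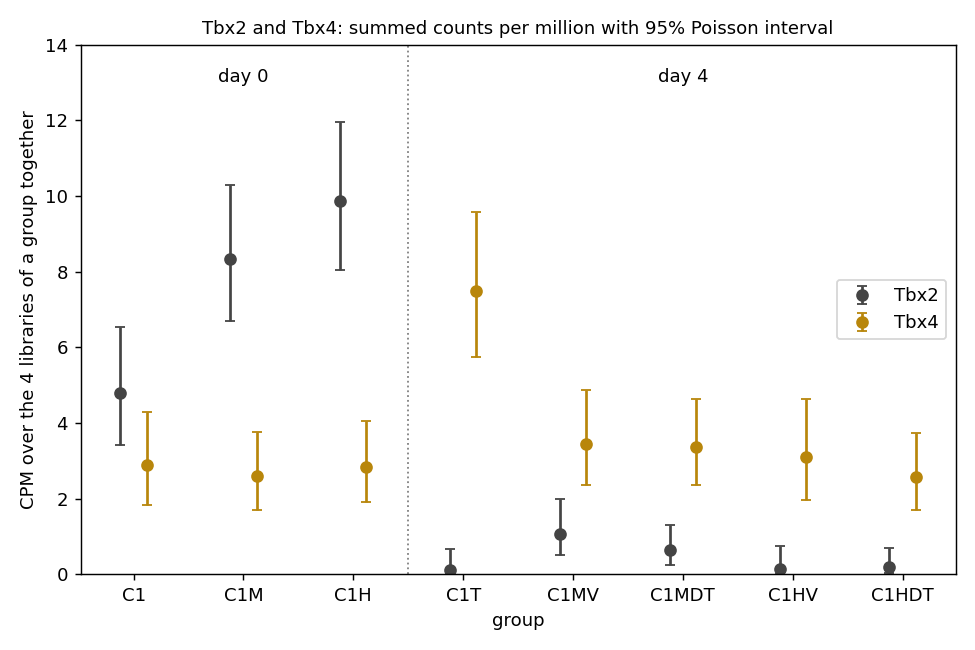
Level of Tbx2 (grey) and Tbx4 (ochre) over the 4 libraries of each group together, in CPM, with the exact 95% Poisson interval as bar (counting error only). Tbx2 stood between 4.79 and 9.86 CPM in the day 0 groups and at 1.08 CPM or below at day 4, whereas Tbx4 stood between 2.56 and 3.44 CPM in all groups but C1T, where it was at 7.49 CPM.

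Tbx4 did not differ detectably between the sorted fractions. The log2 fold change was 0.11 in C1H vs C1M (95% interval −0.79 to 1.00, FDR = 0.963, edgeR), −0.18 in C1HV vs C1MV (−1.10 to 0.74, FDR = 0.962) and −0.36 in C1HDT vs C1MDT (−1.23 to 0.50, FDR = 0.978). Tbx3 gave 0.14 (−0.01 to 0.29, FDR = 0.455), −0.10 (−0.30 to 0.11, FDR = 0.876) and −0.06 (−0.28 to 0.17, FDR = 0.989) in the same comparisons. Its intervals were the narrowest of the 3 genes, and its counts were the largest.

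In all, 0 of the 3 tested members were called in any comparison of sorted fractions by edgeR. Before adjustment, 1 of these values was under 0.05 (Tbx2 in C1HV vs C1MV), and DESeq2 called none of the 3 where it gave an adjusted value. Over all genes, 1 gene (0.00654%) was called in C1HV vs C1MV, which was Slc13a5, named here after its value was seen, and 0% were called in C1HDT vs C1MDT, where 814 genes had an unadjusted p under 0.05 and DESeq2 called 0. The interaction of sorted fraction and duration was also not called for Tbx2 (1.11, 95% interval −2.27 to 4.49, FDR = 0.923, and 2.94 with FDR = 0.785 without C1HV replicate 4), Tbx3 (0.04, −0.26 to 0.34, FDR = 0.981) or Tbx4 (−0.18, −1.45 to 1.08, FDR = 0.977). In that interaction 0% of genes were called by edgeR, 1285 had an unadjusted p under 0.05, and DESeq2 called 20.

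Tbx6, the paraxial mesoderm member, stayed at the limit of detection. Its counts in replicates 1 to 4 were 2, 3, 1 and 0 in C1, 0, 3, 1 and 0 in C1M, and 1, 0, 4 and 1 in C1H. At day 4 they were 0, 1, 1 and 0 in C1T, 2, 0, 2 and 0 in C1MV, 0, 2, 3 and 0 in C1MDT, 1, 1, 1 and 1 in C1HV, and 2, 0, 2 and 2 in C1HDT. No library held more than 4 reads, and the groups overlapped.

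Summed by day, Tbx6 had 16 counts at day 0 (0.546 CPM, exact 95% Poisson interval 0.312 to 0.886) and 21 at day 4 (0.449 CPM, 0.278 to 0.687). These intervals overlap, and no difference in Tbx6 was detected at this depth. The nearest tested genes lie 969 bp before it (Ypel3) and 306 bp after its end (Ppp4c, on the opposite strand). Ypel3 was at 28.8 ± 4.58 CPM in C1 and 58.7 ± 4.81 CPM in C1T (log2 fold change 1.04, FDR = 2.65e-09, edgeR), and Ppp4c was at 8.61 ± 1.93 and 8.40 ± 2.33 CPM (SD, n = 4).

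The paraxial mesoderm programme in which Tbx6 acts was looked at through a list of 20 genes, of which 16 passed the filter. In C1T vs C1, 5 rose and 1 fell, where 49.2% of all genes were called and 24.4% rose, and the median log2 fold change was 0.71 against 0.01 over all genes. Cdx1, a caudal-type homeobox gene, went from 28 summed counts in C1 to 0 in C1T. Dll1, a Notch ligand, went from 3 summed counts in C1 to 98 in C1T, and Mesp2, a segmentation regulator, from 1 to 22. T (Brachyury) had at most 4 summed counts in any group and Msgn1 was at 0 in 7 of the 8 groups. With 2 up and 1 down, 3 were called in C1H vs C1 (25.9% of all genes), and in C1HDT vs C1T, 1 rose and 1 fell (33.5% of all genes called). In C1MV vs C1T, 1 rose and 3 fell (30.2%). In C1MDT vs C1T (33.4%) and C1HV vs C1T (28%), 1 rose and 1 fell. The summed level of the 20 genes ranged from 45.9 to 66.9 CPM at day 0. At day 4 it ranged from 304 to 370 CPM in C1T and from 66.3 to 114 CPM in the other groups. In C1HDT vs C1HV, 0 of the 16 were called by edgeR, against 15.9% of all genes, and 1 had an unadjusted p under 0.05. DESeq2 calls were not counted for the list.

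The antisense gene Tbx3os1 overlaps the 5′ end of Tbx3 on the opposite strand. It was at 5.57 ± 1.84 CPM in C1 and 0.272 ± 0.323 CPM in C1T (SD, n = 4), from 48 and 2 summed counts. The strand setting of the counting was not given in the sources used here, so reads of the antisense gene and of Tbx3 in the overlap might not have been separated. Beside the 6858 summed counts of Tbx3 in C1 this amount was small.

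Around the Tbx2 and Tbx4 pair, Bcas3 ends 6493 bp before Tbx2 and Brip1 lies 142041 bp after Tbx4. Bcas3 was at 52.7 ± 8.43 CPM in C1 and 31.5 ± 7.62 CPM in C1T (log2 fold change −0.74, FDR = 9.96e-06, edgeR), and Brip1 was at 36.9 ± 2.54 and 57.4 ± 6.42 CPM (0.68, FDR = 3.02e-06). In C1H vs C1, Brip1 was higher by 0.75 (FDR = 3.87e-07) and Bcas3 gave −0.10 (FDR = 0.617).

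The naive pluripotency list, to which Tbx3 belongs, was counted over its 15 other genes. In C1T vs C1, 12 fell and 1 (Gbx2) rose, where 49.2% of all genes were called and 24.9% fell. The log2 fold change was −5.0 for Klf4, −4.71 for Tfcp2l1, −4.54 for Socs3, a target of LIF signalling, and 4.50 for Gbx2, and the median of the list was −2.29 against 0.01 over all genes. In C1H vs C1, 3 rose and 3 fell (25.9% of all genes called), with Gbx2 at 1.42, Socs3 at 0.75, Klf4 at −0.56 and Tfcp2l1 at −0.49, and the median was −0.04.

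Of these 15 genes, most fell with sustained against withdrawn induction. In C1MDT vs C1MV, 10 fell and none rose (12.6% of all genes called, 5.98% lower). In C1HDT vs C1HV, 11 fell and 1 rose (15.9% of all genes called, 6.89% lower), with Prdm14 at −1.82, Zfp42 at −1.77, Esrrb at −1.45 and Nr0b1 at −1.43, and with a median of −1.03 against 0 over all genes. Their summed level had a median over libraries of 8522 CPM in C1, 1810 CPM in C1T, 3197 and 3081 CPM in C1MV and C1HV, and 1791 and 1817 CPM in C1MDT and C1HDT. In C1HDT vs C1T, 4 rose and 7 fell (33.5% of all genes called), and Tbx3 itself was not called. In C1MV vs C1T, 10 rose and 3 fell (30.2% called), and in C1HV vs C1T, 9 rose and 3 fell (28% called), and Tbx3 was higher in both.

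**Figure D4:**
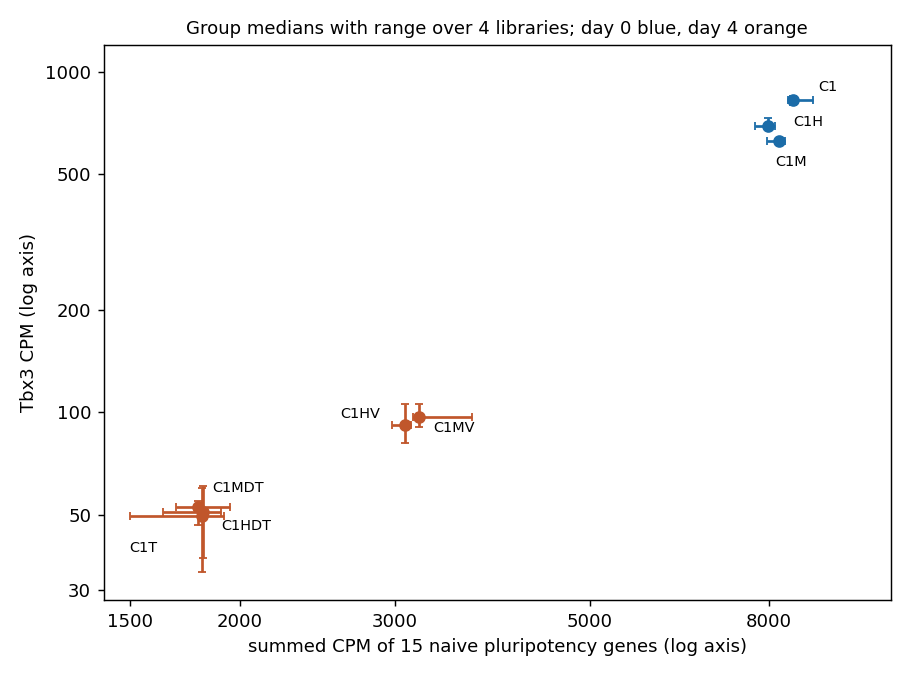
Tbx3 level (vertical, CPM) against the summed level of the 15 other naive pluripotency genes (horizontal, CPM), both on log axes, as group medians with the range over 4 libraries. The groups fall into 3 clusters, with C1, C1M and C1H highest on both axes, C1MV and C1HV between, and C1T, C1MDT and C1HDT lowest.

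The genes whose log2 CPM was most like that of Tbx3 over the 32 libraries were Tfcp2l1 (Pearson r = 0.994), Klf4 (0.992) and Ly75 (0.986), and the gene with the lowest r was Cks1b (−0.986). The corresponding genes were Ceacam10, Serpinb1a and Slc1a1 (each 0.94) and Peg3 (−0.94) for Tbx2, and Gmps, Wdr46 and Coq5 (0.70, 0.70 and 0.69) and Prkaa2 (−0.70) for Tbx4. All 32 libraries share the day and group structure. Within groups, r was 0.55, 0.44 and 0.40 for Tfcp2l1, Klf4 and Ly75 with Tbx3, 0.54, 0.33 and 0.29 for Ceacam10, Serpinb1a and Slc1a1 with Tbx2, and 0.50, 0.63 and 0.42 for Gmps, Wdr46 and Coq5 with Tbx4. The correlation of Tbx2 with Tbx3 was 0.90 over all libraries and −0.31 within groups. With Spearman's rho, 1 of the 3 genes stayed for Tbx3 and none for Tbx2 or Tbx4. With a prior count of 0.5 in log2 CPM, 3 stayed for Tbx3, 2 for Tbx4 and none for Tbx2.

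Genes of primitive endoderm, an extraembryonic lineage, were higher in the induced day 4 groups. Of 16 genes, 15 rose in C1HDT vs C1T, with Sox17 at 6.23, Cubn at 5.76, Lama1 at 5.70 and Dab2 at 5.25 on the log2 scale (median 4.22), while the Tbx3 value was −0.0049 and not called. In C1HDT vs C1T 33.5% of all genes were called, 17.4% higher. In C1MDT vs C1T, 15 rose and none fell (median 4.20, 33.4% of all genes called), and Tbx3 was not called. In C1MV vs C1T, 15 rose and none fell (median 3.76, 30.2% called, 15.4% higher), and Tbx3 was higher by 0.95. In C1HV vs C1T, 15 rose and none fell (median 3.74, 28% called, 13.7% higher), and Tbx3 was higher by 0.85. In C1T vs C1, 1 rose and 5 fell (49.2% of all genes called), and in C1H vs C1, 2 rose and 3 fell (25.9%), whereas in C1M vs C1, 4 rose and 2 fell (26.3%). In C1HDT vs C1HV, where 15.9% of all genes were called, 8 rose, with Sox17 at 0.84, and none fell, while Tbx3 fell by 0.86. Their summed level ranged from 371 to 412 CPM in C1T and from 3368 to 6012 CPM in the other day 4 groups.

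Genes that Tbx2 or Tbx3 are known to repress were taken as a list of 10, of which 7 passed the filter. Over all genes 49.2% were called in C1T vs C1, 25.9% in C1H vs C1, 33.5% in C1HDT vs C1T and 15.9% in C1HDT vs C1HV. In C1T vs C1, 4 rose and 2 fell. Gja1 (connexin 43) rose by 4.01, while Ndrg1 fell by 1.18 and Adam10 by 0.84 (median 0.34 against 0.01 over all genes). In C1H vs C1, where Tbx2 was higher and Tbx3 lower, 4 rose and none fell, and 13.8% of all genes rose. These were Cdh1 by 1.32, Gja1 by 1.09, the cell cycle inhibitor Cdkn1a by 0.72 and Cdkn2a by 0.47. The list median was 0.47 against 0.04 over all genes. In C1M vs C1, 4 rose and none fell (26.3% of all genes called). Where Tbx3 was higher, 3 rose and 3 fell in C1MV vs C1T (30.2% called), and 2 rose and 3 fell in C1HV vs C1T (28%). In C1HDT vs C1T, 3 rose and 2 fell, and in C1HDT vs C1HV, 3 rose, among them Gja1 (0.53) and Cdkn1a (0.41).

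Limb, allantois and heart mesoderm genes, among which Tbx2 and Tbx4 are known to act, numbered 18, and 16 passed the filter. Over all genes 49.2% were called in C1T vs C1, 25.9% in C1H vs C1, 33.5% in C1HDT vs C1T and 15.9% in C1HDT vs C1HV. In C1T vs C1, 2 rose, Lef1 by 6.75 and Bmp4 by 2.63, and 2 fell, Kdr by 2.51 and Pitx1, a regulator of Tbx4 in the hindlimb, from 77 summed counts to 3. In C1HDT vs C1T, 4 rose and 3 fell, with Fgf10 at 4.03 and Bmp4 at −3.04. In C1H vs C1, 1 rose and 2 fell, and in C1HDT vs C1HV only Lef1 was called, at 0.51.

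Lists for other cell types the cultures could hold were counted in the same 4 comparisons, in which 49.2% (C1T vs C1), 25.9% (C1H vs C1), 33.5% (C1HDT vs C1T) and 15.9% (C1HDT vs C1HV) of all genes were called. Of 11 trophoblast genes that passed the filter, 5 fell in C1T vs C1 (24.9% of all genes fell) and 3 rose in C1HDT vs C1T (17.4% rose), and Elf5 was at 0 in C1 and in all day 4 groups. Esx1 rose in C1H vs C1, and in C1HDT vs C1HV, 1 fell (Tfap2c). Of 9 neural progenitor genes, 4 rose and 1 fell in C1T vs C1, 3 rose and 2 fell in C1H vs C1, 4 rose and 2 fell in C1HDT vs C1T, and 2 rose and 1 fell in C1HDT vs C1HV. Of the 8 core pluripotency genes, 5 rose and 2 fell in C1T vs C1, 3 fell in C1H vs C1, 5 fell in C1HDT vs C1T, and 3 rose and 1 fell in C1HDT vs C1HV. Whether the makeup of the cultures had a part in the T-box values was not tested.

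The rest of the T-box family was followed through 13 genes, 8 of which passed the filter. In C1T vs C1, 5 of the 8 fell and none rose, where 49.2% of all genes were called and 24.9% fell, and the median log2 fold change was −1.49 against 0.01 over all genes. Eomes, known from the epiblast and trophoblast, went from 39.7 to 18.1 mean CPM (−1.10, FDR = 3.79e-08, edgeR), and Mga, a T-box and Max-binding protein, from 485 to 330 mean CPM (−0.53, FDR = 4.88e-10). Tbx15 was lower with 39 against 18 summed counts (FDR = 0.0394), Tbx21 with 31 against 8 (FDR = 0.0079) and Tbx20 with 8 against 0 (FDR = 0.0135). Tbx1, Tbx5 and Tbx18 were not called, with 9, 7 and 7 summed counts in C1 and 2, 6 and 1 in C1T.

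In the comparisons of induction and of its duration, 2 of the 8 were called in C1H vs C1, 3 in C1HDT vs C1T and 1 in C1HDT vs C1HV. The shares over all genes were 25.9%, 33.5% and 15.9%, so these counts were near the background. In C1H vs C1, Tbx15 rose by 0.95 (39 and 101 summed counts, FDR = 0.028, edgeR) and Mga fell by 0.33 (FDR = 0.000135). In C1HDT vs C1T, Tbx1 was higher with 27 against 2 summed counts (FDR = 0.00138), Tbx21 was lower with 0 against 8 (FDR = 0.00721), and Mga fell by 0.60 (FDR = 1.94e-11). In C1HDT vs C1HV only Mga was called, falling by 0.53 (FDR = 2.03e-08). Over all groups Tbx15 had 39, 80 and 101 summed counts in C1, C1M and C1H and 8 to 18 in the day 4 groups. Of the 5 genes that did not pass the filter, T and Tbr1 had at most 4 summed counts in any group, Tbx19 had 3 in C1MV, Tbx10 had 1 in C1M, and Tbx22 had none.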

How the data were processed

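RNA of 32 libraries (8 groups, 4 each) was sequenced with a 3′ protocol, and the authors deposited one table of raw read counts per gene and library, made with STAR on mm10 and counted over Ensembl genes. The strand setting was not given in the sources used here. Rows that name no gene (no feature 4.72% to 11.2%, alignment not unique 49.4% to 56.4% of the column total) were left out of library sizes. Replicate pairs differed by more than sampling noise (chi-square per degree of freedom 1.51 to 4.25 over 48 pairs), so none was counted as a duplicate. The p-values measure the spread between cultures of 1 cell line. A figure caption of the study describes the 4 samples averaged per group as coming from the same experiment. Spread between independent experiments may therefore not be covered.

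Genes that reached 1 CPM in 4 or more libraries (15280) entered a fit in R 4.3.3 with edgeR 4.0.16 (TMM, robust quasi-likelihood, 8 group means, all 32 libraries), with Benjamini-Hochberg adjustment and a threshold of 0.05. CPM values are the deposited counts scaled to the counted reads of a library. Ratios of summed counts have exact 95% intervals for counting error only. DESeq2 1.42.0, other scalings, filters, a replicate block, fits of only the groups compared and leaving out each library were alternatives. Scaling by library size alone moved the median of all genes by less than 0.1 (log2). Coding sequences came from GENCODE M21 (GRCm38) and were aligned with MAFFT 7.526. The members and gene lists were chosen with earlier results of these data known. Named were the members, Ctnnb1, the tested T-box genes, up to 4 called members of each list with the largest changes, the 3 most and 1 least correlated genes (Pearson r of log2 CPM with a prior count of 2, mean log2 CPM at least 1) and the neighbouring genes. Elsewhere genes are named from the lists as background. Values of 1 listed gene are not reported here.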

Additional observations from a re-analysis of the deposited data

Results flagged for a closer look

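The decline of Tbx3 with day differed between arms. Relative to C1T vs C1, the log2 fold change was higher by 1.41 in C1MV vs C1M (FDR = 5.55e-15), by 1.17 in C1HV vs C1H (FDR = 3.82e-11) and by 0.51 in C1MDT vs C1M (FDR = 0.00391), by the interaction in edgeR. In these comparisons 22.5%, 21.9% and 24.4% of all genes had a called interaction.

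Tbx2 was at 0 in 3 libraries of C1T and at 0.637 CPM in replicate 4, and at 0 in 3 libraries of C1HV and at 0.666 CPM in replicate 4. Each of these values is 1 read. With the other 3 libraries tied at 0, any single read would stand apart in this way, so nothing is read from it. No other combination stood apart among the 40 examined by the gap to the nearest library (Tbx2, Tbx3, Tbx4, Tbx6 and Ctnnb1 in 8 groups), and chance gives about 5%.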

How the results depend on the processing

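In the alternatives run, no tested value of Tbx2, Tbx3 or Tbx4 lost or gained its call, apart from the Tbx3 interaction for C1HDT, which passed in 4 of the 16 fits without 1 library (0.17 to 0.47 over all 16, the cause was not tested). The fit of only the groups compared called 570 genes in C1H vs C1M (271 in the fit of all libraries) and 0 in C1HV vs C1MV (1). With no filter on low counts 3 genes were called in C1HV vs C1MV and 11 in the interaction of sorted fraction and duration (0 with the filter), where DESeq2 called 20. Without 1 library at a time the counts ranged from 117 to 229 in C1H vs C1M, lowest without C1M replicate 2, from 0 to 7 in C1HV vs C1MV, highest without C1MV replicate 4, and from 0 to 8 in that interaction, highest without C1MV replicate 4, C1MDT replicate 1 or C1HV replicate 1. Same-numbered replicates did not deviate together (mean r = −0.0018, 0 of 28 group pairs over 0.1), and the replicate block gave 7451 calls in place of 7524 in C1T vs C1 and 262 in C1H vs C1M, and changed no call of a member. Untested fitted values of Tbx2 moved in 53 cases by more than the SD between libraries of a group (log2 of CPM + 1, mean over the groups compared), which in these groups can be smaller than the SE of the fit. All 53 involve a day 4 group of 10 or fewer summed counts. Without a filter on low counts Tbx6 was not called in any comparison (FDR from 0.413 to 1). Values of Tbx2 at day 4, Tbx4 and Tbx6 rest on few reads, and 3 counts in a library were worth 0.822 to 2.19 CPM.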
